A study of Homo sapiens with 42 samples.

Results

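The data described here are the change that quizartinib made in heavy polysome RNA beyond its change in total RNA, in MOLM-13 cells kept in plain RPMI. MOLM-13 is a human acute myeloid leukemia (AML) cell line whose growth depends on the receptor tyrosine kinase FLT3. It carries an internal tandem duplication of this gene (FLT3-ITD), and quizartinib (AC220) is a FLT3 inhibitor. Of the 42 libraries of the series, 12 enter this comparison: 3 cultures given vehicle and 3 given 3 nM quizartinib for 12 hours, each sequenced once as poly(A) RNA of the whole lysate (input) and once as RNA of the heavy polysomes, the dense gradient fractions that hold messages carrying several ribosomes. The members were picked by these labels, with earlier results of these data known. All 6 cultures shared the same cell line and medium, and carried no everolimus. The line is labelled wild type although it carries FLT3-ITD. For each culture the log2 level of a gene in input was subtracted from that in heavy polysomes, and the difference between quizartinib and vehicle in this value is called the polysome shift. A negative shift means that the level of the gene, scaled between libraries, fell in heavy polysomes relative to input under the drug. Because of this scaling, a small shift can differ in sign from the change in share of all counts.

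A message carries more ribosomes when initiation is fast and when its coding sequence is long enough to hold them, so movement out of heavy polysomes is a usual sign of slower initiation. Ribosomal proteins, translation elongation factors and some of their partners are encoded by 5′ terminal oligopyrimidine (5′TOP) messages, which begin with a C followed by an unbroken tract of C and T. These messages are known for leaving polysomes when the kinase complex mTORC1, which lies downstream of growth factor receptors, is inhibited. Their total level changes little in that response, since the RNA is held back from translation and kept.

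Because the heavy fraction measures how reads are shared among messages, neither the amount of polysome RNA nor fewer cells against less RNA per cell can be told apart from these counts. The 12 libraries held 27.5 to 38.8 M counts each. Reads of mitochondrially encoded genes made up 3.17 to 9.27% of input and 0.122 to 0.713% of polysome libraries. The polysome library of quizartinib replicate 3 stood apart, with a TMM scaling factor of 1.04 where the other 2 quizartinib polysome libraries had 0.879 and 0.830 and the vehicle ones 0.705 to 0.818, so values that moved most without it are given both ways. All 9 myeloid and AML markers looked at were read in every library, from HOXA9, a homeobox gene of leukemic cells, at 6.39 to 39.2 CPM (counts scaled to the library total), to CEBPA, a myeloid transcription factor, at 510 to 1999.7 CPM. Of 20 stromal markers 8 had no count in any of the 12 libraries, and the list summed to 11.3 to 18.9 CPM in vehicle input, 27.2 to 56.3 in quizartinib input, 15.7 to 21.1 in vehicle polysomes and 35.7 to 46.5 in quizartinib polysomes. COL1A1, a fibrillar collagen, stood at 0.151 to 2.35 CPM in vehicle input and 8.31 to 33 in quizartinib input, and the part of these reads in the results was not tested.

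Ribosomal protein messages were 62 of the 201 genes called, and the start of several is shown here because it is the part of the message by which the 5′TOP class is defined. The 30 bases run from 10 before to 20 from the RefSeq start of the gene on, on the strand of the gene (GRCh38.p14). Capitals mark the longest unbroken run of C and T letters counted from a C within 10 bases of the start, where it had 7 or more letters. The first 5 genes encode ribosomal proteins that fell from polysomes, the last of them without such a run. EEF1A1 and EEF2 encode elongation factors and TPT1 the translationally controlled tumor protein, all of the 5′TOP class. HINT1, a nucleotide hydrolase, and COX7C, a respiratory chain subunit, fell as well. MTOR, the kinase of mTORC1, was not called lower, and its run lies wholly before the RefSeq start, which this rule allows. HSPA5, the chaperone of the endoplasmic reticulum (ER), has no run.
RPS14, chr5:150449720-150449749, minus strand: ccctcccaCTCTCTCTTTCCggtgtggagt
RPS19, chr19:41860245-41860274, plus strand: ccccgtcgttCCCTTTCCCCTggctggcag
RPL21, chr13:27251548-27251577, plus strand: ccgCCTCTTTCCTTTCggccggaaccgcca
RPS7, chr2:3575250-3575279, plus strand: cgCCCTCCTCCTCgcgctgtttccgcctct
RPL12, chr9:127451387-127451416, minus strand: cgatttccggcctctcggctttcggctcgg
EEF1A1, chr6:73521013-73521042, minus strand: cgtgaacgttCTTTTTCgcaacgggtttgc
EEF2, chr19:3985444-3985473, minus strand: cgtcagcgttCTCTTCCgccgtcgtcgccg
TPT1, chr13:45341164-45341193, minus strand: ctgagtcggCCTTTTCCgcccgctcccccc
HINT1, chr5:131165237-131165266, minus strand: ctgcgggttCCTCCCTTCTTCCgagcctct
COX7C, chr5:86617931-86617960, plus strand: tcccatCTTTCTTTTCagtccttgcgcacc
MTOR, chr1:11262532-11262561, minus strand: tCCTTCCCTCgctcccggcttagaggacag
HSPA5, chr9:125241324-125241353, minus strand: cggtgaggtcgacgccggccaagacagcac

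The question of the comparison is which messages changed their place in heavy polysomes when FLT3 was inhibited without stromal factors. Of 12939 genes tested, 201 had a shift with a Benjamini-Hochberg adjusted p under 0.05 in edgeR's quasi-likelihood test, which is 1.55%. The shift was lower under quizartinib for 165 genes (1.28%) and higher for 36 (0.278%). Input RNA changed for 4477 genes (34.6%) and heavy polysome RNA for 6191 (47.8%). Of the 165 genes that fell, 159 had no call in input and 164 were lower in heavy polysomes. Of the 36 that rose, 21 had no call in input, 12 had lower input and 29 were higher in heavy polysomes.

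The median shift of all genes was 0.15, and it moved to 0.01 with RLE scaling and to 0.38 with library size alone, so gene groups are given relative to this median where that is said. The split of the calls followed the scaling: 16 rises and 236 falls with RLE factors, 14 and 233 without mitochondrially encoded genes, 2 and 219 with only the 12 libraries, and 78 and 91 with library size alone. The replicate numbers paired the samples. With the number as a block the fit called 491 genes (195 higher), with a block within each fraction 1513 (1004 higher), and with a block per culture 210 (21 higher). All 165 falls and all 36 rises were called again with the first 2 blocks, and 147 and 11 with the block per culture. Leaving out 1 culture left 104 calls without quizartinib replicate 3, 113 without quizartinib replicate 1, 133 without vehicle replicate 1, and 94 without vehicle replicate 2 and 94 without vehicle replicate 3.

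**Figure D1:**
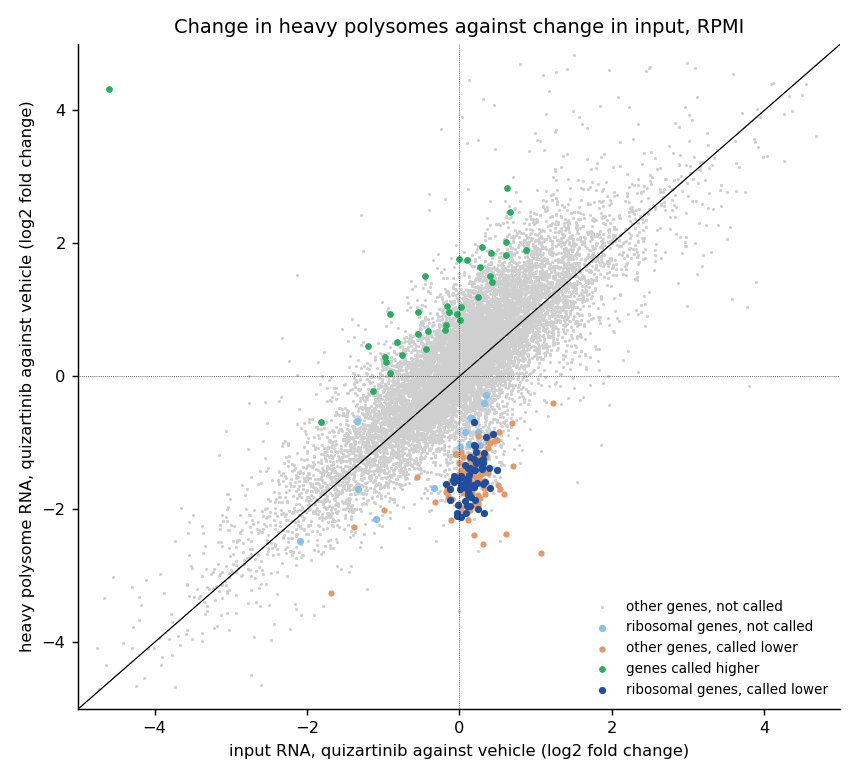
Each point is a gene, with its log2 fold change under quizartinib in input on the x axis and in heavy polysomes on the y axis (12885 genes within 5 log2 units of 0 on both axes), and genes on the diagonal have a shift of 0. The 62 called ribosomal genes form a cluster below the diagonal near 0 on the input axis, while the genes called higher lie above it.

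Ribosomal protein messages left heavy polysomes while their input level stayed near that of vehicle. All 79 genes of the cytosolic ribosome were tested: 62 had a lower shift, 0 a higher one, and 17 were not called, against 1.28% of all genes lower. The 47 genes of the large subunit had a median shift of -1.56 with 36 called lower, and the 32 of the small subunit -1.59 with 26 called lower. In input the median log2 change of all 79 was 0.14, with 3 genes lower, against 18% of all genes, and 0 higher. In heavy polysomes it was -1.55, with 76 genes lower, against 19.6% of all genes.

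The fall was visible in every culture. The median of polysome minus input over the 79 genes was 0.02, 0.37 and 0.47 in the vehicle cultures, and -1.25, -1.41 and -1.43 in the quizartinib cultures (log2 CPM). The groups did not overlap, and the distance between them was several times the spread within either: 0.29 ± 0.23 in vehicle against -1.36 ± 0.095 under quizartinib (SD, n = 3 each). For 73 of the 79 genes every quizartinib culture lay below every vehicle culture, where 6.48% of all genes did so and the groups did not overlap in either direction for 19.8%. Relative to the median of all genes the ribosomal median was -1.72 in the fit as described, -1.73 with RLE factors and -1.73 without quizartinib replicate 3. The count called lower was 75 with the block within each fraction (3.93% of all genes lower) and 41 without vehicle replicate 3, the lowest count with 1 culture left out.

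As a share of all counts, which needs no scaling between libraries, ribosomal genes took 15.5% ± 1.03 of vehicle input and 18.1% ± 1.39 of quizartinib input (SD, n = 3 each). In heavy polysomes they took 15.2% ± 2.65 in vehicle and 7.06% ± 0.962 under quizartinib. The vehicle polysome libraries held 13.1 to 18.1%, and all 3 quizartinib ones held less, from 5.95 to 7.69%. With 3 cultures against 3 an exact two-sided permutation test of 1 value cannot go below p = 0.1, so none is given here.

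**Figure D2:**
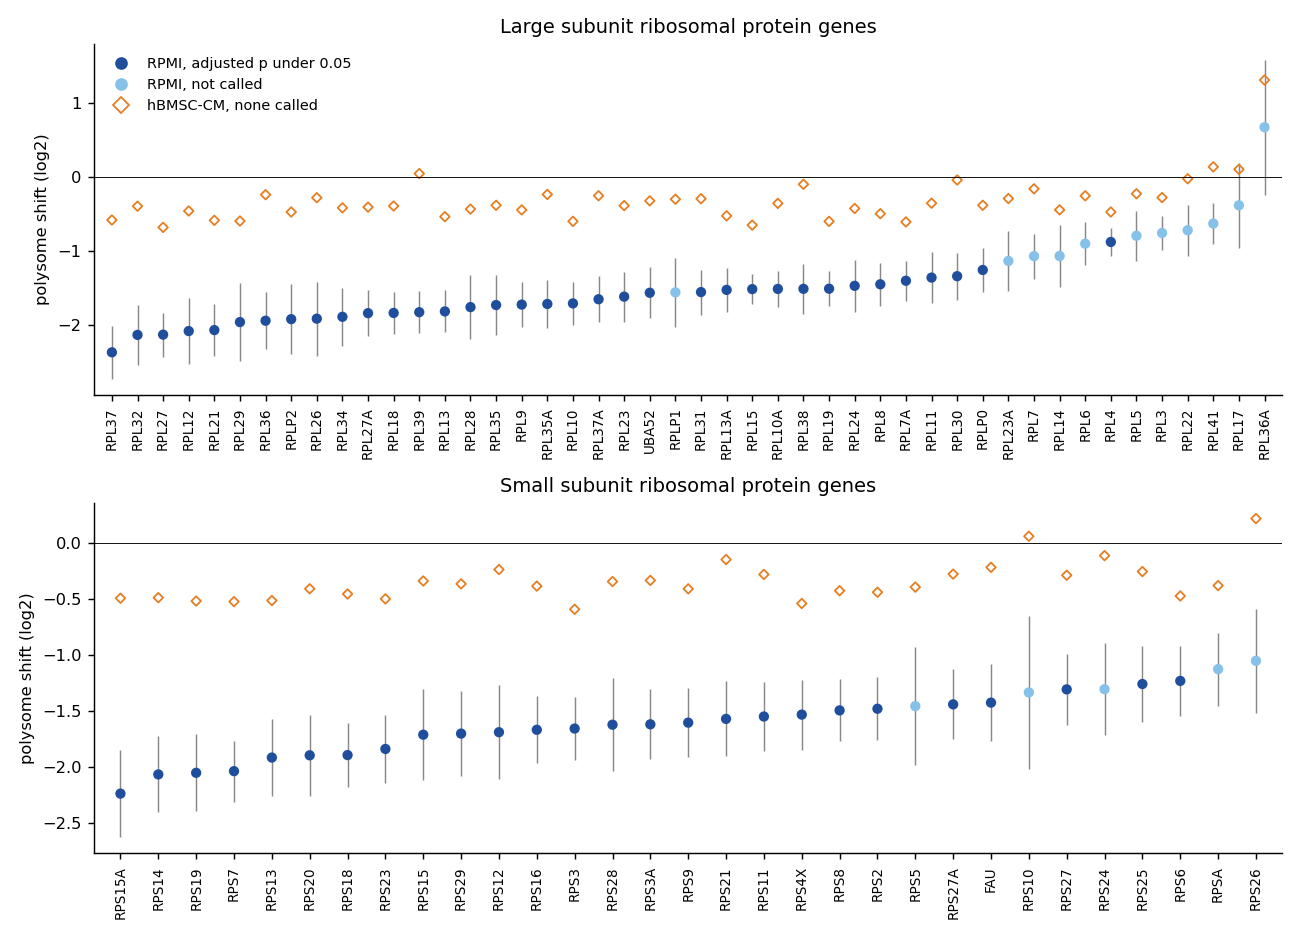
Polysome shift of 77 ribosomal protein genes in RPMI (circles, log2, bars show the standard error of the fit) ordered by size, with the shift of the same gene in hBMSC-CM as open diamonds. In the large subunit RPL37 is lowest at -2.38, and all 77 genes plotted lie below their value in hBMSC-CM.

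RPL37, a zinc-binding protein of the large subunit (ENSG00000145592, chromosome 5, 40825262 to 40835222 on GRCh38), had the lowest shift of all ribosomal genes. Its input level was 1577, 1328 and 1530.3 CPM in vehicle and 2002, 1590.2 and 1941 CPM under quizartinib. Its heavy polysome level was 1187, 1264 and 1905 CPM in vehicle and 406, 257 and 384 CPM under quizartinib. Every quizartinib input library was thus above the vehicle ones and every quizartinib polysome library far below them. The input change of 0.32 did not pass the test, and the shift was -2.38 ± 0.36 (SE, adjusted p = 0.000233, edgeR).

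RPL27, also of the large subunit, and RPS7, of the small subunit, were among the genes with the lowest adjusted p. RPL27 polysome minus input was 0.42, 0.93 and 0.77 in vehicle and -1.38, -1.61 and -1.33 under quizartinib (shift -2.14 ± 0.30, adjusted p = 9.55e-05, edgeR). RPS7 stood at 0.10, 0.54 and 0.47 in vehicle and -1.75, -1.71 and -1.51 under quizartinib (shift -2.04 ± 0.27, adjusted p = 9.55e-05, edgeR). In both genes the cultures of a group lay close together relative to the gap. RPS15A, a small subunit protein whose exons 1 other gene on the same strand shares, had a shift of -2.24 and RPL32, of the large subunit, which shares exons with 1 gene on each strand, one of -2.14. RPS14, RPS19 and RPL21, whose starts are shown above, had shifts of -2.06, -2.05 and -2.08.

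The members differed among themselves. At the other end of the called genes stood RPL4, a large subunit protein and the longest of the 79 in coding length with 1281 bases. Its polysome minus input was 0.04, -0.07 and 0.25 in vehicle and -0.89, -0.72 and -0.79 under quizartinib, and its shift was -0.88 ± 0.20 (adjusted p = 0.00993, edgeR). RPL3, RPL5 and RPL6, large subunit proteins of 1209, 891 and 864 bases of coding sequence, had shifts of -0.76, -0.80 and -0.91 that did not pass the test. RPL41, the shortest with 75 bases, had a shift of -0.63, with 3 quizartinib cultures (-1.41, -1.42 and -1.65) below 3 vehicle cultures (-0.79, -0.85 and -0.96). Across the 79 genes the Spearman correlation of shift with coding length was 0.26, a description over genes that share the same libraries.

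Of the 17 genes not called, 4 had a mean under 10 CPM, RPL17, RPL36A and RPS10 among them. RPL36A, at a mean of 1.38 CPM, was the only one of the 79 with a positive shift, 0.67 ± 0.91 (SE). Ribosomal genes have many near-identical copies in the genome, and reads that fit several places may have been left out or split. The cause of the low counts of these 4 genes was not tested, and their levels are uncertain. RPS26 was the highest of the small subunit genes with at least 10 CPM: its shift was -1.05 ± 0.47 and its input was lower by -1.09 (log2), which made it 1 of the 3 ribosomal genes with a call in input. With the block within each fraction RPS26 and RPL41 were called lower (adjusted p = 0.0175 and 0.0329, edgeR).

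The same copies appeared among the calls. Of the 165 genes that fell, 87 were processed pseudogenes, which are copies of a message inserted elsewhere in the genome. The 301 processed pseudogenes named after a ribosomal gene had a median shift of -1.34 and 68 were called lower, while the other 575 had a median of -0.03 with 19 called lower. RPL37P2, with a shift of -2.35, RPS15AP1, with -2.27, and RPL12P4, with -2.14, were among the 10 largest falls and lay beside their parent genes RPL37, RPS15A and RPL12 (-2.38, -2.24 and -2.09). Also among those 10 were AL033519.2, Z74021.1 and AC004453.1, with shifts of -2.18, -2.15 and -2.13. Reads of parent and copy may be shared, which was not tested. The counts of 201 and 165 include these copies.

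Of 27 other 5′TOP messages tested, 1 was called lower, against 1.28% of all genes, and 0 higher. With the block within each fraction 7 were called lower, against 3.93% of all genes, and with the block per culture 2. In 5 of the 27 every quizartinib culture lay below every vehicle culture, where 6.48% of all genes did. Their median shift was -0.43, or -0.59 relative to all genes, and -0.80 relative to all genes without quizartinib replicate 3. EEF1B2, the exchange factor that recharges elongation factor 1A, was the one that fell. Its polysome minus input was 0.13, 0.56 and 0.45 in vehicle and -1.17, -1.24 and -0.99 under quizartinib (shift -1.52 ± 0.26, adjusted p = 0.000861, edgeR). EEF1A1, the elongation factor that brings aminoacyl-tRNA to the ribosome, had values of -0.46, -0.87 and 0.09 in vehicle and -1.22, -1.10 and -0.53 under quizartinib, so that the groups overlapped while quizartinib was lower in each same-numbered pair (shift -0.61 ± 0.37, adjusted p = 0.459, and 0.151 to 0.516 with the blocks, edgeR). EEF2, the translocation factor, stood at 1.37, 0.48 and 0.85 in vehicle and 0.27, 0.78 and 0.58 under quizartinib (shift -0.48 ± 0.46, adjusted p = 0.696, edgeR). TPT1 had a shift of -1.27 ± 0.61 (adjusted p = 0.303, and 0.00457 with the block within each fraction, edgeR) and PABPC1, the poly(A)-binding protein, 0.27 ± 0.73 (adjusted p = 0.926, edgeR). EIF3A, a large subunit of initiation factor eIF3, had the highest value of this group, 1.64 ± 0.56 (adjusted p = 0.138, and 0.019 with the block within each fraction, edgeR).

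Runs like those shown above were also read in many other genes. Among 63 ribosomal genes with a RefSeq promoter sequence 79.4% had a run of 7 or more C and T letters as defined there, searched on the strand of the gene only, as had 55% of 20 other 5′TOP genes, 14.2% of 8943 genes tested and 13.4% of all 27305 promoters. Counting only runs whose first C follows A or G or is the start base itself, these shares were 69.8%, 50%, 11.2% and 9.97%. The length of 7 was chosen after the values were seen. Ribosomal genes with the run had a median shift of -1.62 (50 genes) and those without it -1.53 (13 genes). Among all other genes the 1217 with the run had a median shift of 0.14, with 4 called lower and 2 higher, and the 7663 without it 0.20, with 9 called lower and 24 higher. Below 900 bases of coding sequence these medians were -0.20 (294 genes) and -0.14 (1919 genes).

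Outside the ribosome and its copies, 13 coding genes fell, of which 1 is Y-linked and not described. All 13 had short coding sequences, 171 to 963 bases with a median of 471. GEMIN7, a subunit of the SMN complex that assembles spliceosomal particles, had values of 0.48, 0.70 and 0.78 in vehicle and -0.56, -0.81 and -1.46 under quizartinib. Its input rose by 1.23 ± 0.24 on the log2 scale (SE), while the change in heavy polysomes, -0.40 ± 0.24, did not pass the test (shift -1.63 ± 0.34, adjusted p = 0.00455, edgeR). NPM3, a nucleolar chaperone, fell in both layers, from 79.6 to 95.7 CPM of input in vehicle to 20.5 to 32.4 CPM under quizartinib, and from 244 to 322 CPM of heavy polysomes to 24.2 to 37.0 CPM (shift -1.58 ± 0.30, adjusted p = 0.00214, edgeR). FBL, the methyltransferase fibrillarin of ribosomal RNA processing, was lower in input by -0.99 (log2) and had a shift of -1.03. APRT, the adenine salvage enzyme, was lower in input by -1.38 and had a shift of -0.88.

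Most of the others fell from polysomes with input near that of vehicle. COPS9, a small subunit of the COP9 signalosome, had a shift of -1.49, CHCHD5, a mitochondrial protein, -1.38, and UXT, a prefoldin-like protein, -1.29. HINT1 stood at 0.33, 0.75 and 0.75 in vehicle and -0.42, -0.56 and -0.61 under quizartinib (shift -1.15 ± 0.27, adjusted p = 0.019, edgeR). SLC25A6, an ADP/ATP carrier of the mitochondrial inner membrane, had a shift of -1.14 and C1orf122, whose input was lower by -0.56, one of -0.96. The quizartinib cultures lay below the vehicle cultures in all 12 genes, as the plot of other called genes shows.

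**Figure D3:**
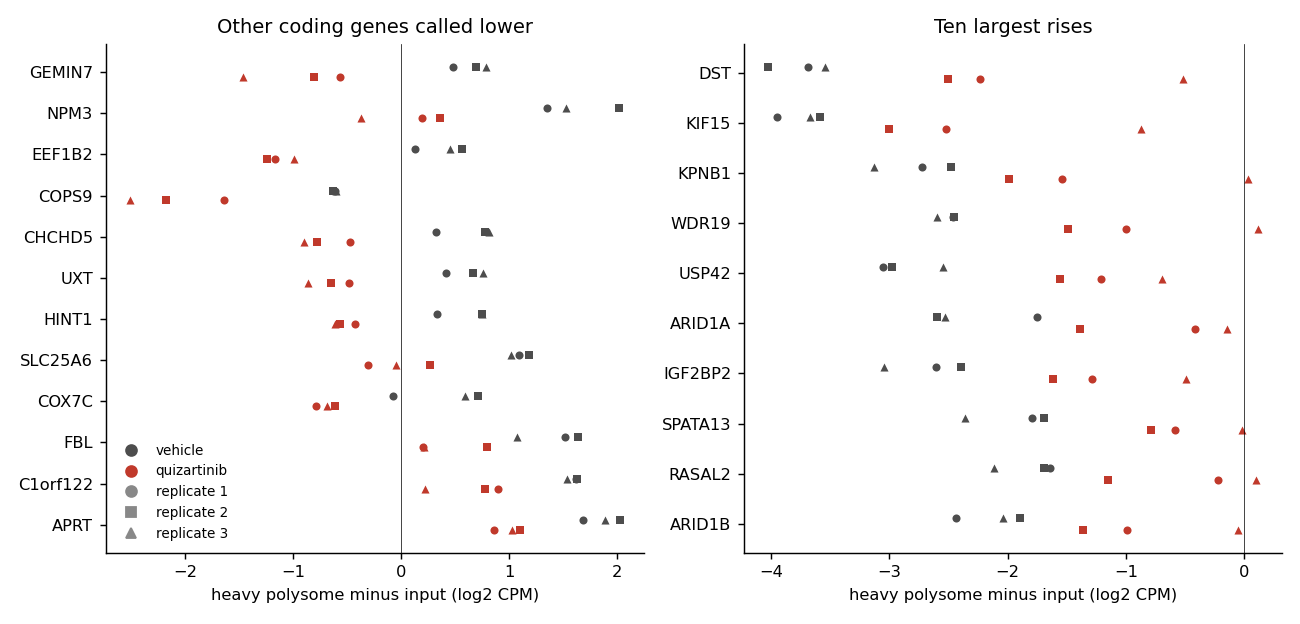
Heavy polysome minus input (log2 CPM) in each RPMI culture for the 12 other coding genes called lower (left) and the 10 largest rises (right), with vehicle in grey, quizartinib in red and the replicate number as marker shape. Groups do not overlap in any gene, which for the rises was a condition of the choice. In the rises quizartinib replicate 3 (red triangle) is the highest of the 6 cultures in all 10.

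Messages of oxidative phosphorylation (OXPHOS), the respiratory chain and ATP synthase that make ATP in mitochondria, were called lower in heavy polysomes for 50 of 78 tested, against 19.6% of all genes, and higher for 1. In input 20 were called lower, against 18% of all genes, and 1 higher. In the shift of these nuclear-encoded subunits 1 was called lower, against 1.28% of all genes, and 0 higher, against 0.278%. Their median shift was -0.47, or -0.63 relative to all genes. In 22 of the 78 every quizartinib culture lay below every vehicle culture, where 6.48% of all genes did. In 3 of the 78 every quizartinib culture lay above every vehicle culture, where 1727 of all 12939 genes did. The one called was COX7C, a small subunit of cytochrome c oxidase with 189 bases of coding sequence. It stood at -0.07, 0.71 and 0.59 in vehicle and -0.79, -0.62 and -0.68 under quizartinib (shift -1.12 ± 0.29, adjusted p = 0.0383, edgeR), and it lost its call in 7 of the 17 alternatives, the block per culture among them (adjusted p = 0.0743). By complex, the median shift was -0.31 for 35 genes of complex I, -0.61 for 25 of complexes II to IV and -0.55 for 18 of ATP synthase. With the block within each fraction 18 of the 78 were called lower (3.93% of all genes) and 1 higher (7.76%), while the block per culture called 1 lower and 0 higher. COX5A, NDUFS8 and ATP5MC1, subunits of complex IV, complex I and ATP synthase, had shifts of -0.33, -0.44 and -0.49 without a call, while their input was lower by -0.95, -0.76 and -2.47 (log2), each with a call. The 75 genes of the mitochondrial ribosome tested had a median shift of -0.22 and no call. The 13 mitochondrially encoded genes, which are translated inside mitochondria and are sparse in cytosolic polysomes, had a median shift of 0.27 and no call. With the block per culture this median was -0.02, and relative to all genes it went from 0.12 to -0.17. Single genes had standard errors of 1.90 for MT-ND4L and 1.63 for MT-ND3.

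**Figure D4:**
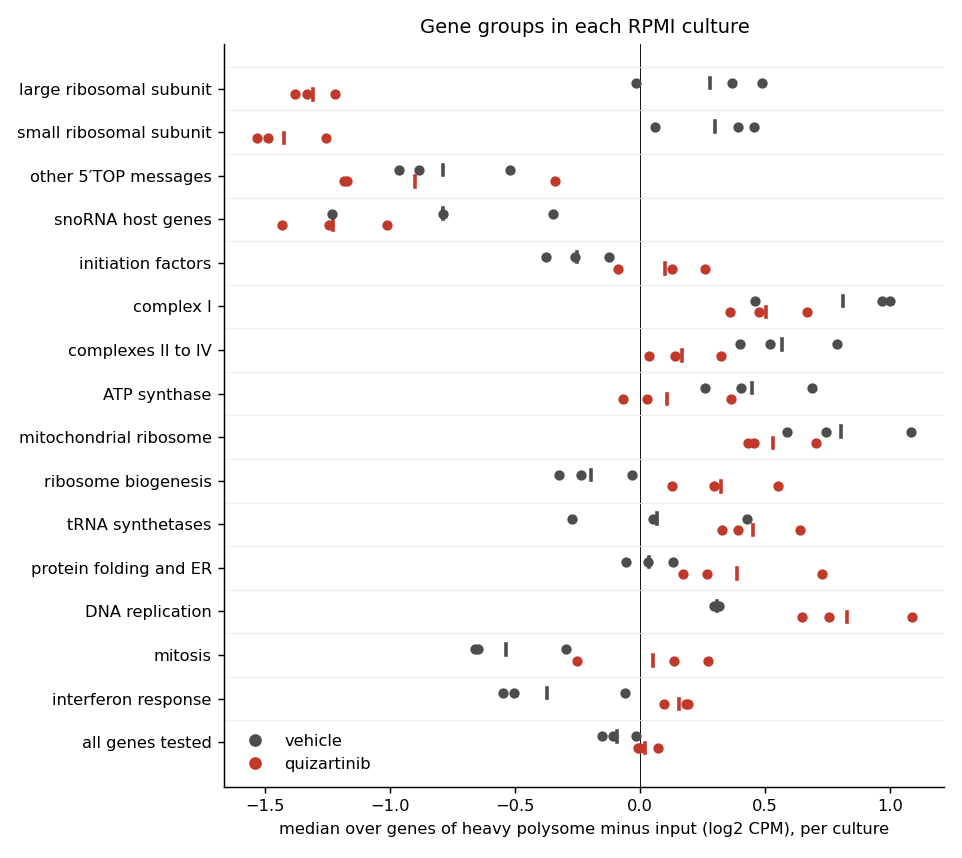
For each gene group, the median over its genes of heavy polysome minus input (log2 CPM) in the 3 vehicle (grey) and 3 quizartinib (red) RPMI cultures, with ticks for the group means. The 2 ribosomal groups show the widest gap between vehicle and quizartinib of the groups plotted.

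Genes of ribosome biogenesis, the making of ribosomal RNA and its assembly with proteins, were lower in input. The 48 genes of ribosome biogenesis tested had a median input change of -1.99 with 47 called lower, against 18% of all genes. Their median shift was 0.61, or 0.46 relative to all genes, and 0.31 and 0.23 without quizartinib replicate 3. In the shift 1 was called higher, against 0.278% of all genes: POLR1B, the second largest subunit of RNA polymerase I. Its input was lower by -1.82 (log2), and its polysome minus input was -0.80, -1.13 and -1.15 against -0.01, -0.07 and 0.36 (shift 1.13 ± 0.29, adjusted p = 0.0368, edgeR). NOP58, a box C/D particle protein, had the highest value of the group, 2.03 ± 0.66, which did not pass the test (adjusted p = 0.116, edgeR) but did with the replicate block and the block within each fraction (adjusted p = 0.0371 and 0.0211). The same group held FBL, which fell and lost its call in 6 of 17 alternatives, the block per culture among them (adjusted p = 0.117).

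The 40 genes of protein folding and the ER tested had a median input change of -1.07 and a median shift of 0.43, with 1 called higher, against 0.278% of all genes. Relative to all genes the median was 0.28, and 0.14 without quizartinib replicate 3. That gene was PDIA3, a disulfide isomerase of glycoprotein folding, at -0.65, -0.63 and -1.17 in vehicle and 0.33, 0.10 and 0.71 under quizartinib (shift 1.18 ± 0.23, adjusted p = 0.00265, edgeR). Its pseudogene PDIA3P1 was called higher too and may share its reads. HSPA5 had a shift of 1.37 ± 0.39 (adjusted p = 0.0703, edgeR) and reached a call in 4 of 17 alternatives, among them the replicate block and the block within each fraction (adjusted p = 0.0345 and 0.00266).

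Among 20 tRNA synthetases tested, 38 genes of mitosis, 40 of DNA replication, 25 of the interferon response and 13 of the leukemia program none was called, and their median shifts were 0.57, 0.72, 0.42, 0.53 and 0.55. Relative to all genes the medians of synthetases, mitosis and the leukemia program were 0.42, 0.57 and 0.40, and 0.26, 0.21 and 0.16 without quizartinib replicate 3. NFKB1, the precursor of NF-kB subunit p50, was the only call among 18 genes of the NF-kB response (shift 1.18 ± 0.30, adjusted p = 0.0324, edgeR). VLDLR, a lipoprotein receptor, was the only call among 24 ATF4-associated genes (1.21 ± 0.30, adjusted p = 0.0271, edgeR). Of all genes 0.278% were called higher. NFKB1 lost its call in 10 of 17 alternatives, the block per culture among them (adjusted p = 0.102), and VLDLR in 8. In the 28 lists with 3 or more genes tested and no call, which held 761 genes counted per list, medians relative to all genes ran from -0.70 for ATP synthase to 0.57 for mitosis. The remaining list with a call, of MYC-associated and growth genes, held NPM3 and had a median shift of 0.05. In it 1 of 22 genes tested was called lower, against 1.28% of all genes.

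None of the 25 genes picked for their role in the pathway was called in the shift, while 11 were called in input, against 34.6% of all genes. MYC, the growth-promoting transcription factor, had an input change of -3.52 ± 0.32 (SE) with polysome minus input of 0.20, 0.20 and 0.91 in vehicle and 0.82, 0.92 and 1.40 under quizartinib, so that the groups overlapped while quizartinib was higher in each same-numbered pair (shift 0.67 ± 0.42, adjusted p = 0.466, and 0.139 to 0.344 with the blocks, edgeR). MCL1, a survival factor with a short-lived protein, stood at 0.28, 0.14 and -0.62 against 0.65, 0.58 and 0.90, with groups apart but an adjusted p of 0.0954 (edgeR, shift 0.74 ± 0.23), which was 0.035 with the replicate block, 0.00888 with the block within each fraction and 0.14 with the block per culture. ATF4, the transcription factor controlled by upstream reading frames, had a shift of -0.59 ± 0.44 (adjusted p = 0.58, edgeR), and PPP1R15A and DDIT3, of the same stress response, -0.02 and 0.01. MTOR had a shift of 1.52 ± 0.50 (adjusted p = 0.124, edgeR), ATM, the DNA damage kinase, 1.17 ± 0.49 (adjusted p = 0.241, edgeR) and FLT3 0.84 ± 0.37 (adjusted p = 0.254, edgeR). MTOR and FLT3 were called higher with the block within each fraction (adjusted p = 0.00799 and 0.00635).

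The 36 rises tended to be long messages. Of these 35 were coding genes with 1191 to 23454 bases of coding sequence. Their median was 2628 bases, against 1395 for the 10728 coding genes outside the ribosome. DST, which encodes the giant cytoskeletal linker dystonin with 23454 bases of coding sequence, had the largest shift among genes with at least 10 CPM. It stood at -3.69, -4.02 and -3.55 in vehicle and -2.24, -2.51 and -0.52 under quizartinib (shift 2.20 ± 0.55, adjusted p = 0.0273, edgeR). KPNB1, importin beta of nuclear import, stood at -2.72, -2.48 and -3.13 in vehicle and -1.54, -1.99 and 0.03 under quizartinib (shift 1.84 ± 0.46, adjusted p = 0.0253, edgeR). In both genes quizartinib replicate 3 was far above the other 2 quizartinib cultures. Groups that do not overlap were a condition for naming these rises.

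IGF2BP2, an RNA-binding protein that stabilizes growth-related messages, had input levels of 126, 126 and 151 CPM in vehicle and 162, 163 and 172 CPM under quizartinib. Its heavy polysome levels were 20.7, 23.9 and 18.2 CPM in vehicle and 66.5, 53.1 and 122 CPM under quizartinib (shift 1.64 ± 0.35, adjusted p = 0.00734, edgeR). USP42, a deubiquitinase, lost its call in 1 of 17 alternatives, that without quizartinib replicate 3, and stood at -3.06, -2.98 and -2.54 against -1.21, -1.56 and -0.69 (shift 1.78 ± 0.34, adjusted p = 0.00214, edgeR). ARID1A and ARID1B, paralogous subunits of the BAF chromatin remodeller, had shifts of 1.65 and 1.37. KIF15, a mitotic kinesin, had 1.97, WDR19, of ciliary transport, 1.81, SPATA13, a guanine exchange factor, 1.52 and RASAL2, a Ras GTPase activator, 1.40. KIF15 and SPATA13 lost their call in 11 of the 17 alternatives, RASAL2 in 8, DST, KPNB1 and WDR19 in 7, ARID1A and ARID1B in 6 and IGF2BP2 in 3. With the block per culture these calls were lost except those of IGF2BP2 and USP42 (adjusted p = 0.0539 for WDR19 to 0.13 for KIF15).

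Without quizartinib replicate 3 no gene was called higher, with 869 genes at an unadjusted p under 0.05 in either direction (edgeR). Without quizartinib replicate 2 the number was 42, without vehicle replicate 2 it was 6, without vehicle replicate 3 it was 10, without quizartinib replicate 1 it was 15 and without vehicle replicate 1 it was 17. The falls numbered 84 to 116 in the 6 fits with 1 culture left out, lowest without vehicle replicate 3 (84) and vehicle replicate 2 (88), then 98, 104 and 106 without quizartinib replicates 1, 3 and 2. The block within each fraction called 1004 genes higher (7.76%). Of the 36 rises, 2 had a mean under 1 CPM and were looked at after their values were seen: THBS1, a matrix glycoprotein, had at most 6 counts in any library, and ZNF35, a zinc finger gene, had 0 counts in all 3 vehicle polysome libraries and 11, 29 and 26 in the quizartinib ones.

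Length ordered the shift across the other coding genes as well. Up to 300 bases of coding sequence the median shift was -0.50 (229 genes), from 301 to 600 it was -0.23 (1137 genes), from 601 to 900 -0.01 (1465 genes), from 901 to 1500 0.14 (3011 genes), from 1501 to 3000 0.35 (3425 genes), from 3001 to 6000 0.57 (1185 genes) and above 6000 0.79 (276 genes). The Spearman correlation over the 10728 genes was 0.50, and 0.43 without quizartinib replicate 3. The share of G and C at the third codon position correlated with the shift at -0.41, and at -0.06 without quizartinib replicate 3. All these genes share the same 12 libraries, so the coefficients are descriptions.

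The longest messages were poor in heavy polysomes in the vehicle cultures. Above 6000 bases the median of polysome minus input was -1.37, -1.42 and -1.35 in the vehicle cultures and -0.58, -1.12 and 0.11 under quizartinib. The quizartinib cultures were spread over more than 1 log2 unit, and all lay above vehicle. In the stromal medium described below, replicate 3 was the highest in vehicle as well as under quizartinib. From 301 to 600 bases it was 0.06, 0.50 and 0.45 in vehicle and -0.04, 0.30 and -0.06 under quizartinib, where the groups overlapped while quizartinib was lower in each same-numbered pair. Without quizartinib replicate 3 the median shift above 6000 bases was 0.41 in place of 0.79.

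Ribosomal genes lay far below other genes in their range of coding length. Their coding sequences had 75 to 1281 bases with a median of 453. The 4858 other coding genes in that range were longer, with a median of 819 bases. They had a median shift of -0.03, with 13 called lower and 1 higher. Among the 2953 of them whose GC share at the third codon position lay between the 10th and 90th percentile of ribosomal genes the median was -0.06, with 9 called lower. The ribosomal median was -1.57, and that of other coding genes with 301 to 600 bases was -0.23.

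**Figure D5:**
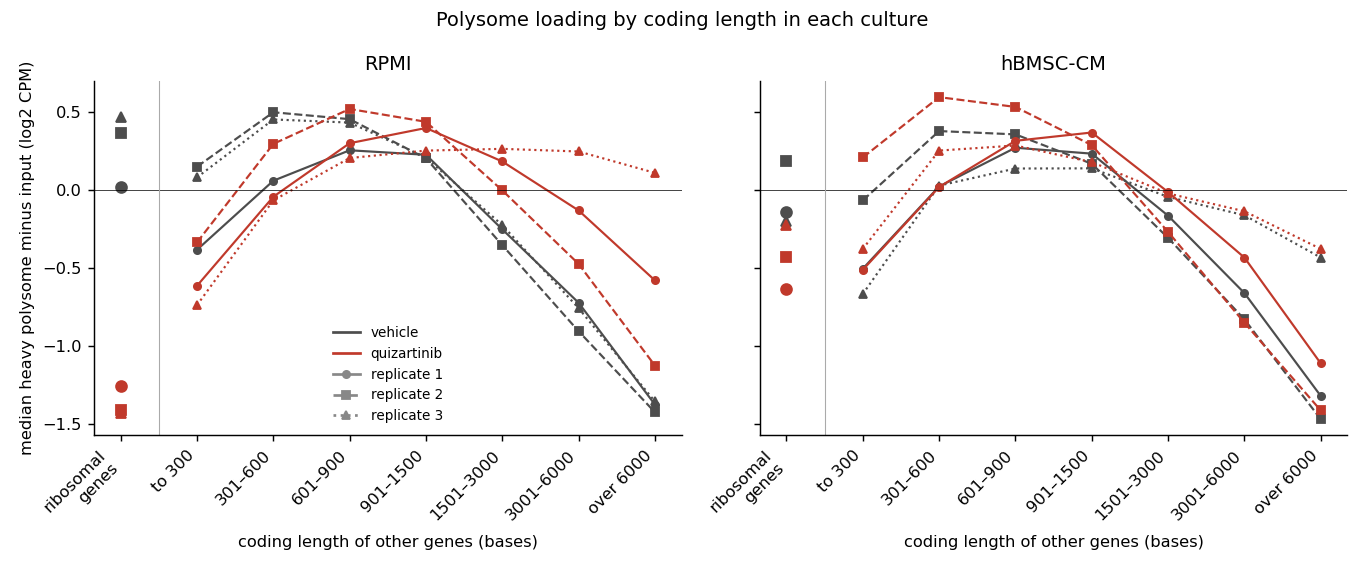
Median heavy polysome minus input (log2 CPM) of coding genes outside the ribosome by coding length, 1 line per culture, and of the 79 ribosomal genes at the left, in RPMI and in hBMSC-CM. In RPMI the ribosomal genes fall from 0.02 to 0.47 in vehicle to -1.25 to -1.43 under quizartinib, while the lines of other genes separate toward long coding sequences, most in quizartinib replicate 3.

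The same drug, dose and time were used in medium conditioned by human bone marrow stromal cells (hBMSC-CM), in another 12 libraries. There the ribosomal genes had a median shift of -0.39, or -0.49 relative to all genes. Their median of polysome minus input was -0.14, 0.19 and -0.20 in vehicle and -0.63, -0.43 and -0.22 under quizartinib, with the highest quizartinib culture next to the lowest vehicle culture. No gene was called (0% of 12939) by edgeR, nor by limma voom or DESeq2. In edgeR 288 genes had an unadjusted p under 0.05, where 647 are expected by chance. This number was 466 with the replicate block, 765 with the block within each fraction and 362 with the block per culture. For 24 of the 79 genes all quizartinib cultures lay below all vehicle cultures, where 1.52% of all genes did.

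The test of the difference between media called no gene in edgeR (0%) and none in limma voom. In edgeR 624 genes had an unadjusted p under 0.05, where 647 are expected by chance. This number was 991 with the replicate block, 1664 with the block within each fraction and 695 with the block per culture. DESeq2 called 13, all ribosomal and all with a smaller fall in hBMSC-CM, and the block within each fraction called 2, RPL39 and RPS7. RPL39, of the large subunit, had a shift of -1.83 in RPMI and 0.04 in hBMSC-CM, with an adjusted p of 0.53 for the difference in edgeR and of 0.00102 in DESeq2. The median difference of the 79 genes was 1.27. In hBMSC-CM the length correlation was -0.11. Above 6000 bases the median of polysome minus input there was -1.32, -1.47 and -0.43 in vehicle and -1.11, -1.41 and -0.38 under quizartinib. Long messages thus stood highest in replicate 3 of this medium with and without the drug, and the cause was not tested.

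Combo, quizartinib with 10 nM everolimus in RPMI, was compared with the same vehicle libraries, so the 2 comparisons are not independent and their values are given side by side only. The ribosomal median shift was -1.57 for quizartinib and -1.86 for combo, with 62 and 68 of 79 genes called lower (2.51% of all genes for combo). Ribosomal genes took 7.06% ± 0.962 of heavy polysome counts under quizartinib and 6.33% ± 0.503 under combo (SD, n = 3 each).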

How the data were processed

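The authors made poly(A)-selected paired-end libraries, trimmed them with BBDuk, aligned them to the human genome (hg38, Ensembl release 96) and counted reads per gene with STAR 2.6.0a. The deposited values are raw counts per gene, and the strand setting of the counting is not given in the sources used here. Rows that share a gene name were summed. Genes with a mean of at least 1 count and 1 CPM over all 42 libraries were kept (12939 genes, 99.8% of counts).

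All 42 libraries entered 1 quasi-likelihood fit in edgeR 4.0.16 (R 4.3.3) that gave each of the 14 groups its own mean, scaled libraries by TMM and had no term for replicate number. The shift is the interaction of drug and fraction, and p-values were adjusted by Benjamini-Hochberg over all genes. Per-culture values are TMM-scaled log2 CPM with a prior count of 2. The fit was tested on simulated data. limma voom 3.58.1, DESeq2 1.42.0, other scalings, filters, blocks and each culture left out were the alternatives.

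Replicate numbers pair the samples: same-numbered deviations from the group means correlated in every pair of the 4 RPMI groups. Within a fraction the correlation was 0.37 to 0.57. Between input and polysomes it was 0.13 to 0.27 in the same culture and 0.14 to 0.24 across treatments. These ranges overlapped, so the values show a shared replicate number but not which fractions came from the same culture. Between unlike numbers it was at most 0.07, a value lowered in part because deviations from a group mean sum to 0. The labels do not say whether cultures were grown separately, so p-values measure the spread between these samples. Coding lengths and positions are from GENCODE v44 (GRCh38), with an entry for 99.7% of genes and a coding length for 83.5%. Genes were named by rule: the 10 largest rises and 10 largest falls among called genes with at least 10 CPM and cultures that do not overlap, the highest and lowest members of each of 39 lists, and 25 fixed genes. Other genes were named after their values were seen. The members, lists and rules were chosen with earlier results of these data known. Single genes that were left out of the text and the plots are not reported here.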

Additional observations from a re-analysis of the deposited data

How the results depend on the processing

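Falls of ribosomal genes kept their direction in all 17 alternatives, with 41 to 75 of 79 called, and leaving out 1 culture gave 41 to 58. The number of genes called in the shift was 388 with DESeq2, 491 with the replicate block, 1513 with the replicate block within each fraction, and 94 to 148 with 1 culture left out. The difference between media had 13 calls with DESeq2, 2 with the replicate block within each fraction, and 0 to 1 with 1 culture left out, against 0. The replicate block per culture gave 210 calls, with 21 rises in place of 36. The split into rises and falls depended on scaling, on the replicate blocks and on quizartinib replicate 3. With the replicate block 195 genes were higher and 296 lower, against 36 and 165 in the main fit. With the block within each fraction 1004 were higher and 509 lower. Among results of named genes 110 lost and 75 gained a call, 1675 stayed on their side of the threshold and 57 uncalled ones changed sign, and no called gene changed sign. The cause of these changes was not tested. With 3 cultures per group, small shifts may go uncalled. The list of mitochondrially encoded genes gave no value without those genes.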
